A study of Homo sapiens with 6 samples.

Results

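Among 6 arrays that the labels all assign to the prostate cancer cell line LNCaP, 1 array, labelled DMSO 3, read as a lymphoid-like sample. It carried high signal for B-lymphocyte and MHC class II genes, and it had dim signal for luminal prostate genes that were bright on the other 5 arrays. This array was compared with the other 2 arrays of its labelled group, DMSO 1 and DMSO 2. Of 12165 genes measured, 471 lay at least 4-fold above both and 514 at least 4-fold below both, and these genes are described here by their roles. The array and its markers were selected on these same values, so the differences are a description: there was 1 array on one side, none of the differences was tested, and no p-value is given.

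LNCaP is an epithelial line from a prostate cancer metastasis that responds to androgen and secretes prostate-specific antigen. Per the labels, the control arrays held RNA of LNCaP cells kept for 6 h with DMSO, the solvent of the drug, and the treated arrays (3 in number) RNA of cells exposed for 6 h to 20 µM gedunin, a limonoid natural product. All cultures grew in RPMI medium with fetal bovine serum, and the arrays of a group are numbered as biological replicates. No label sets DMSO 3 apart from the other control arrays, and no other source of its RNA is given in the labels. The gedunin arrays serve here only to check LNCaP levels.

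B lymphocytes carry a surface immunoglobulin whose signal passes through the CD79A and CD79B chains, and they present antigen on MHC class II molecules, whose chains are assembled with the invariant chain CD74. The coactivator CIITA, with the RFX and NF-Y factors bound at the X and Y boxes upstream of these genes, switches class II transcription on in B cells, while most epithelial cells leave it off. Luminal prostate cells instead make simple keratins, junction proteins and androgen-driven secreted proteases such as KLK3 (prostate-specific antigen).

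The sequences upstream of 8 genes are shown because the class II genes were high together on DMSO 3, where KLK3 and KLK2 were below the array median. Each sequence holds the 250 bases before the start of a gene in RefSeq (GRCh38.p14), read 5′ to 3′ on the gene's strand. Capitals mark matches, on either strand, to the Y box letters (ATTGG, or CCAAT on the other strand), the X box core (AGCAACNG), the octamer (ATTTGCAT), an element bound by PU.1 and other ETS factors (GAGGAAGT), the androgen response half-site (AGAACA) and the TATA element (TATAAA).
CD74 (chr5:150412911-150413160, minus strand): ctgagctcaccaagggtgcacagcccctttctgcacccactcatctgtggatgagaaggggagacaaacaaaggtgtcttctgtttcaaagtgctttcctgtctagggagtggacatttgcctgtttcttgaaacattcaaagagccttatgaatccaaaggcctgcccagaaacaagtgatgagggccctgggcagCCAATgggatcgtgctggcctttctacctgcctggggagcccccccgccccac
HLA-DRB1 (chr6:32589849-32590098, minus strand): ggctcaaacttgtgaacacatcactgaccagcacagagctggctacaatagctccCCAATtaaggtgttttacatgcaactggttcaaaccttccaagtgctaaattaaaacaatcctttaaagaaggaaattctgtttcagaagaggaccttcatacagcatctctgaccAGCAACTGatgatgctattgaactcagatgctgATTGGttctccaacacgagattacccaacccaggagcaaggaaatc
HLA-DOA (chr6:33009592-33009841, minus strand): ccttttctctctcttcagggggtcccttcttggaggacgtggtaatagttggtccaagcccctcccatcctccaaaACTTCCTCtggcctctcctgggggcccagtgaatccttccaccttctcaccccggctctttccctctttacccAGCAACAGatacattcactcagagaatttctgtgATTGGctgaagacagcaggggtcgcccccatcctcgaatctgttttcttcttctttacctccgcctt
HLA-DQA1 (chr6:32637156-32637405, plus strand): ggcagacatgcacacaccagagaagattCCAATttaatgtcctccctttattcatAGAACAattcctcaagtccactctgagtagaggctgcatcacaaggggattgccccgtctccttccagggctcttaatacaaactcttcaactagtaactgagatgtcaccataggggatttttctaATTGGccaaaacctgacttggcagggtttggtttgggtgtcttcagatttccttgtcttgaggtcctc
HLA-DPB1 (chr6:33075740-33075989, plus strand): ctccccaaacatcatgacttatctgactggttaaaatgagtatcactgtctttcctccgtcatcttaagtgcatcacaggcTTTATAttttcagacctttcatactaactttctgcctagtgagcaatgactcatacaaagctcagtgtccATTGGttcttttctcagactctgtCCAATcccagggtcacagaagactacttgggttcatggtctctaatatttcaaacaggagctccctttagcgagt
CD79A (chr19:41877029-41877278, plus strand): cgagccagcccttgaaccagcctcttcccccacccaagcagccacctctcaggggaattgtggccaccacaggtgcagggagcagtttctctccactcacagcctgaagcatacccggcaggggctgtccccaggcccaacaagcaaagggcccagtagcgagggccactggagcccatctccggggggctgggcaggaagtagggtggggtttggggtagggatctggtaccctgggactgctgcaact
KLK3 (chr19:50854665-50854914, plus strand): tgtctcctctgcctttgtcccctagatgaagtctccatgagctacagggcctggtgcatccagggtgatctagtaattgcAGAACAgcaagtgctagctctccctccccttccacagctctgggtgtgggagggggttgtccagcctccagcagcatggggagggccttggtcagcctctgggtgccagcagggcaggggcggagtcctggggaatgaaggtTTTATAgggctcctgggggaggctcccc
KLK2 (chr19:50873189-50873438, plus strand): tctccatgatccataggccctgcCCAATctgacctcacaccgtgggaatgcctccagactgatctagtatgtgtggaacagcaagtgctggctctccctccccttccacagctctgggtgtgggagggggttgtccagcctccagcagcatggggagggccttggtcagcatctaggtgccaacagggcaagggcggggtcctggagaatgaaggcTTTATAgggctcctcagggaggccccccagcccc

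Positions are counted backwards from the start, so that -1 is the last base before it. The CD74 sequence held CCAAT at -53 to -49. In HLA-DRB1 the X box core matched at -79 to -72 as AGCAACTG, upstream of ATTGG at -46 to -42, and in HLA-DOA it matched at -101 to -94 as AGCAACAG, upstream of ATTGG at -67 to -63. HLA-DQA1 held ATTGG at -68 to -64 and HLA-DPB1 at -99 to -95. CCAAT was also found in HLA-DPB1 at -75 to -71, in HLA-DQA1 at -222 to -218 and in HLA-DRB1 at -195 to -191. No capitals stand in the CD79A sequence. The KLK3 sequence held AGAACA at -170 to -165 and the reverse complement of the TATA letters at -28 to -23. KLK2 held the latter at -34 to -29 but no exact AGAACA. It read ggaaca before the letters gcaagtgct, which follow AGAACA in KLK3, so a near match is not counted here. These letters did not separate the 2 sets of genes: AGAACA was also found in HLA-DQA1 at -195 to -190, the reverse complement of the TATA letters in HLA-DPB1 at -169 to -164, and CCAAT in KLK2 at -227 to -223.

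Over windows that run from 250 bases before to 50 bases after the start, the Y box letters were found in 9 of 10 windows of class II chains and CD74, HLA-DPA1 being the exception, and the X box core in 2 of 10. Among the 9693 genes on the array with a window, 37.4% held the Y box letters and 4.32% the X box core. For the 369 higher genes with a window, these shares were 36.3% and 3.79%, so neither set of letters was more common among the higher genes in general than among all genes. The GAGGAAGT letters were found in 7.86% of the higher genes' windows, 3.03% of the 396 lower genes' windows and 2.58% of all. The higher genes with this match included BTK, the kinase downstream of the B-cell receptor, INPP5D, a lipid phosphatase of blood cells, the actin bundler LCP1 and BCL2A1, a survival factor. The octamer was found in 2.71%, 1.01% and 1.60% of the windows in the same order, among them those of CD53, PRKCB and ST6GAL1. The androgen response half-site was found in 11.7% of higher, 8.84% of lower and 10.3% of all windows. By these letters the lower genes as a whole did not stand out. In single lists, it was found in 5 of 16 windows of luminal secreted and surface genes. Among epithelial structure genes it was found in 3 of 16 windows, and among B-cell receptor genes in 3 of 15. A match is a description of the sequence, and these shares were not tested.

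The values are RMA intensities on a linear scale. Differences of single genes and probe sets are given as log2 differences from the nearer of DMSO 1 and DMSO 2. A difference of 2 is a factor of 4. Medians over gene lists and over all genes are instead medians of the log2 difference from the mean of DMSO 1 and DMSO 2. DMSO 1 and DMSO 2 were close to each other: 0 of 22215 probe sets differed by 2-fold or more, the 95th percentile of the absolute log2 difference was 0.34 and the largest was 0.94. Against both of them, 731 probe sets (3.29%) were at least 4-fold higher on DMSO 3 and 816 (3.67%) at least 4-fold lower. With 1 probe set a gene, these were 471 genes (3.87%) higher and 514 (4.23%) lower. The counts given below for each gene list are to be read beside these shares of all genes. The Spearman rank correlation over probe sets was 0.98 between DMSO 1 and DMSO 2 and 0.82 between DMSO 3 and DMSO 1. These are descriptions only, because normalization can link the values of arrays processed together. The median of DMSO 3 lay within 1 intensity unit of those of the other arrays, which were 31.1 to 31.8, and intensities below them are called dim here. The upper quartile was 128 on DMSO 3, beside 142 on DMSO 1 and 146 on DMSO 2. Where 3 intensities are given for a gene without further words, they are those of DMSO 1, DMSO 2 and DMSO 3, in that order. The table holds no detection calls, so a low value is reported as an intensity and not as absence.

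Some contrasts were far larger than the threshold. At 32-fold or more, 72 genes were higher and 56 lower, and at 128-fold or more, 8 were higher and 7 lower. Of the 471 higher genes, 332 (70.5%) lay below the array median on both DMSO 1 and DMSO 2, beside 42.2% of all genes. Of the 514 lower genes, 234 (45.5%) lay below the median on DMSO 3, a share near the 43.1% of all genes. Nearest the threshold on the higher side, RPIA read 55.5 on DMSO 1, 66.1 on DMSO 2 and 265 on DMSO 3 just inside it and UBD 19.0, 20.3 and 80.6 just outside, at a log2 difference of 1.99. On the lower side CLU read 121, 128 and 30.2 just inside and ACADVL 1577, 1548 and 387 just outside. The split depended on the scale: centred on GAPDH and ACTB, 377 genes were higher and 820 lower. The median log2 difference of all genes then shifted from 0.01 to -0.44. Most of this shift came from ACTB, which lay 0.85 above the mean of DMSO 1 and DMSO 2, beside 0.06 for GAPDH. Because ACTB itself differed on DMSO 3, this centring is an alternative scale and not a neutral one.

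**Figure D1:**
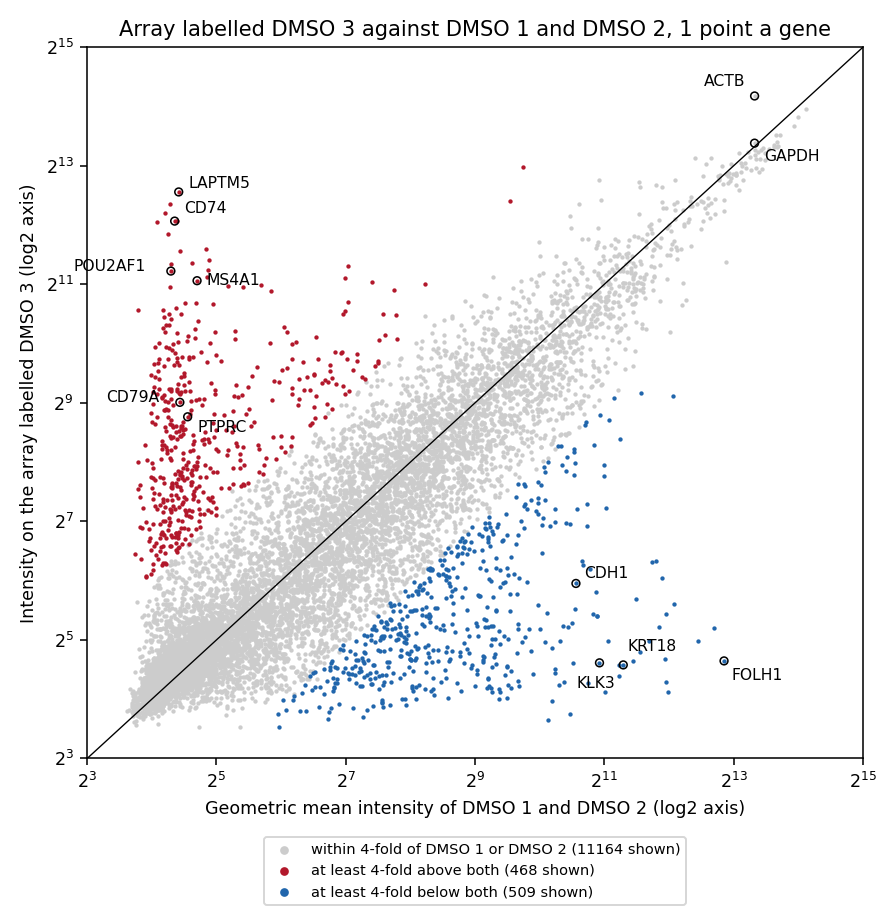
Each point is 1 gene, with the geometric mean intensity of DMSO 1 and DMSO 2 on the horizontal axis and the intensity on the array labelled DMSO 3 on the vertical axis, both log2 axes. The line marks equal values, red points lie at least 4-fold above both DMSO arrays and blue points at least 4-fold below both, with most red points at the dim left edge and the housekeeping genes GAPDH and ACTB within 2-fold of both controls at the bright end.

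Markers given for this array at the outset separated it from the other 5. PTPRC, the phosphatase CD45 found on nearly all white blood cells, read 23.5 on DMSO 1, 23.5 on DMSO 2 and 435 on DMSO 3. MS4A1, which encodes the B-cell surface protein CD20, read 23.8, 28.3 and 2138. CD79A, a signalling chain of the B-cell receptor, read 22.2, 21.0 and 515. All of these were high on DMSO 3 alone, with gedunin arrays at 23.3 to 24.5 for PTPRC, 21.8 to 26.4 for MS4A1 and 23.1 to 24.6 for CD79A. POU2AF1, the octamer coactivator of B cells, had 21.3 and 18.1 on DMSO 1 and DMSO 2 and 2393 on DMSO 3. CD74, the invariant chain, had 20.0 and 20.8 and then 4294, and HLA-DRA, the class II alpha chain, had 19.9 and 17.1 and then 4715.

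The luminal markers went the other way. FOLH1, the prostate-specific membrane antigen, read 7183 on DMSO 1, 7626 on DMSO 2 and 25.0 on DMSO 3, a log2 difference of -8.16 that was the lowest of all genes. KLK3 read 2093, 1809.7 and 24.5, and KRT18, a keratin of simple epithelia, read 2505, 2517 and 23.9. On the gedunin arrays FOLH1 lay between 6126 and 6206, KLK3 between 1702 and 1817 and KRT18 between 3263 and 3596, so the LNCaP levels of all 3 genes held on every other array. A second KLK3 probe set and another 2 probe sets of FOLH1 showed the same contrast, while the remaining FOLH1 probe set read 53.0, 44.8 and 22.7 and did not pass 4-fold.

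**Figure D2:**
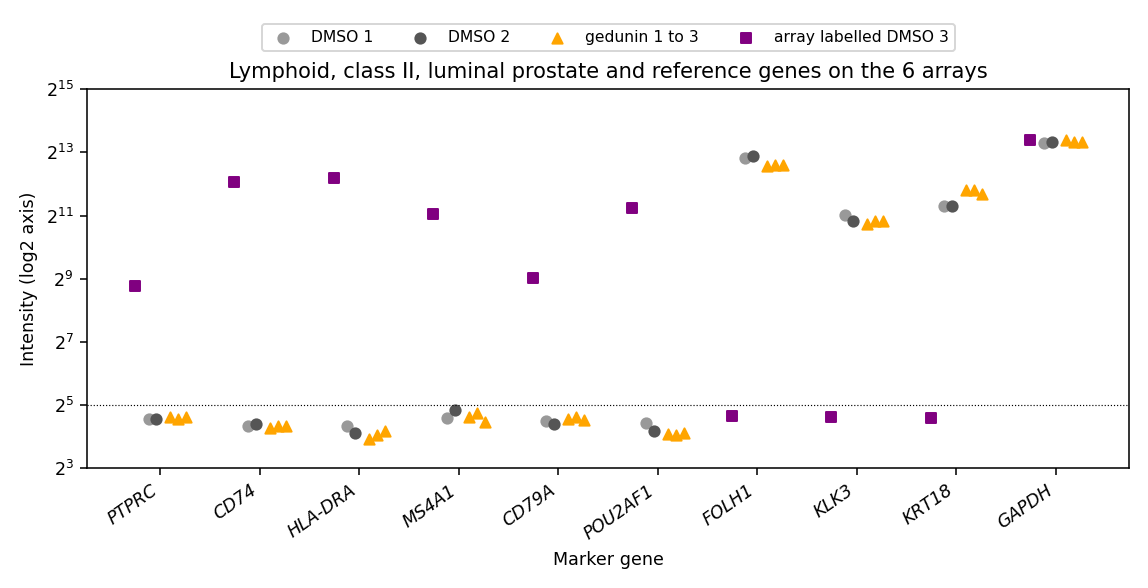
Intensity on a log2 axis of the 9 marker genes and GAPDH on each of the 6 arrays, with squares for the array labelled DMSO 3, circles for DMSO 1 and DMSO 2 and triangles for the gedunin arrays. The dotted line is the median intensity of DMSO 3, and each marker lies above it on DMSO 3 or on the other 5 arrays but not on both, while GAPDH lies together on all 6.

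Genes shared by white blood cells were higher. The 27 measured members of the 30 listed were all at least 4-fold higher on DMSO 3, with a median log2 difference of 4.32 from the mean of DMSO 1 and DMSO 2, beside 0.01 over all genes and the 3.87% of genes counted as higher. Centred on GAPDH and ACTB, 26 of the 27 passed. The largest difference of any gene was that of LAPTM5, a lysosomal protein of blood cells, which read 22.1 on DMSO 1, 20.6 on DMSO 2 and 6038 on DMSO 3, a log2 difference of 8.09. CORO1A, an actin-binding protein of leukocytes, read 20.9, 21.0 and 4277. The adhesion partner CD48 had 29.5 and 27.9 on the LNCaP controls and 3104 on DMSO 3, the GTPase RAC2 18.6 and 20.2 and 1985, and the tetraspanin CD53 29.6 and 20.5 and 2641. SRGN, the proteoglycan of secretory granules, was among the highest of all genes, at 16.6, 17.3 and 4236. Not every member was dim in LNCaP cells: the actin bundler LCP1 read 748, 735 and 5459, and the phosphatase PTPN6 204, 225 and 1925. WAS, the actin regulator of blood cells, lay nearest to the threshold at 106 and 115 against 475.

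Of 23 measured genes of the B-cell receptor complex, its coreceptors and its proximal signalling, 17 were higher and 0 lower, with a median log2 difference of 3.76. Behind MS4A1, the largest differences were those of PRKCB, the protein kinase C isoform that activates NF-kB in B cells, at 19.4 on DMSO 1, 22.2 on DMSO 2 and 1545 on DMSO 3, and PLCG2, the phospholipase downstream of BTK, at 27.7, 23.7 and 1644. CD70 and TNFRSF17, a ligand and a receptor of the TNF system on activated B cells and plasma cells, differed by 4.82 and 4.76. The complement receptor CR2 read 17.6 and 18.7 on the controls and 471 on DMSO 3, and the kinase BTK 24.1 and 24.4 and 523. The other receptor chain, CD79B, read 19.7 and 19.9 on the controls and 200.3 on DMSO 3. Members that stayed near the LNCaP values were FCRL2, at 16.4, 18.2 and 16.5, CD180, at 22.8 on DMSO 3, and the adaptor DAPP1, at 37.2. CD81, a tetraspanin that many cell types carry, was lower on DMSO 3, at 745 against 1877 and 2003, within 4-fold.

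Immunoglobulin genes gave a divided picture, with 5 of 11 higher and a median of 1.33. The probe set annotated to IGHA1 read 15.2 on DMSO 1, 12.6 on DMSO 2 and 1524 on DMSO 3, the largest difference of the list, and that of the heavy chain IGHM read 18.2, 18.3 and 563. JCHAIN, the chain that joins secreted immunoglobulin, had 14.9 and 12.9 on the controls and 256 on DMSO 3. The surrogate light-chain gene VPREB3 and the plasma-cell chaperone MZB1 differed by 2.59 and 2.57. The probe set for the kappa light chain, IGKC, read 15.5, 15.3 and 25.3, and that for IGHG1 read 51.9, 49.4 and 60.9, both close to the LNCaP values. Probe sets for immunoglobulin genes share sequence and can take signal from related chains. For IGHM itself they disagreed, with log2 differences from the nearer control of 4.94, 3.97, 1.51, 0.62 and 0.25 over its 5 probe sets.

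Among 22 transcription factors of B-cell identity, 10 were higher and 0 lower, with a median of 2.00. After POU2AF1 came RUNX3, at 19.2 on DMSO 1, 17.0 on DMSO 2 and 1509 on DMSO 3, and IRF4, a factor of activated B cells and plasma cells, at 23.2, 22.4 and 1654. MEF2C differed by 5.25, IRF8 by 4.23 and SPIB, an ETS factor related to PU.1, by 4.02. Some factors that define the lineage did not follow. PAX5 read 22.6, 21.6 and 28.9, and BACH2 19.0, 23.1 and 25.8. SPI1, which encodes PU.1, was higher but within 4-fold, at 19.0 and 20.6 against 77.4, and so was TCF3, at 167 and 152 against 655. BCL6, the repressor of germinal-centre B cells, was lower on DMSO 3, at 44.5 against 177 and 212, just within 4-fold.

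Germinal-centre genes were mixed, with 4 of 13 higher, 1 lower and a median of 0.19, or -0.27 after centring on GAPDH and ACTB. TCL1A, a coactivator of AKT, read 18.4 on DMSO 1, 18.9 on DMSO 2 and 1274 on DMSO 3, and STAP1, CD38 and LMO2 differed by 3.45, 2.56 and 2.06. MME, which encodes the peptidase CD10 and is made by LNCaP cells, was the lower member, at 1917, 1865 and 42.3, and its second probe set was lower too, at -7.05. MYBL1, at 24.0, 20.6 and 21.6, RGS13, at 17.1 on DMSO 3, and S1PR2, at 19.4, stayed at LNCaP values.

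Response genes of NF-kB and CD40, which mark activated B cells, were higher in 19 of 25 cases and lower in 0, with a median of 4.16. Besides IRF4, FCER2, the low-affinity IgE receptor CD23, read 22.0 on DMSO 1, 21.8 on DMSO 2 and 1447 on DMSO 3, and SLAMF1, a costimulatory receptor, read 18.6, 15.9 and 818. EBI3, a cytokine subunit first found in B cells infected with Epstein-Barr virus, read 17.1, 17.3 and 678. The chemokine CCL22 had 18.9 and 23.4 on the controls and 863 on DMSO 3, and TNFAIP3, the feedback inhibitor of NF-kB, 21.5 and 26.6 and 853. CD80, CD83, ICAM1 and CD58, which serve contact with T cells, differed by 3.82, 3.61, 4.06 and 4.09. RELB, NFKB2 and CD86 lay above both controls but within 4-fold, at 1.78, 1.76 and 1.76.

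The class II antigen presentation list held 20 measured genes, of which 14 were higher and 0 lower, with a median of 3.84. The alpha chain HLA-DPA1 read 19.0 on DMSO 1, 20.1 on DMSO 2 and 5237 on DMSO 3, and the beta chain annotated to HLA-DRB1 read 22.5, 20.9 and 3011. IFI30, a thiol reductase of the lysosome, read 28.7, 28.9 and 2242. Further chains, HLA-DPB1, HLA-DQA1 and HLA-DQB1, differed by 5.52, 4.84 and 3.99. The peptide-exchange chains HLA-DMA and HLA-DMB differed by 5.04 and 3.57, and their inhibitors HLA-DOA and HLA-DOB, which B cells make, by 2.09 and 2.29. HLA-DMA was not at the floor in LNCaP cells, at 56.6 and 58.0 against 1903. Probe sets of the HLA genes share sequence, so their chains cannot be fully separated.

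The regulators of class II transcription did not show the contrast of their targets. CIITA read 25.8 on DMSO 1, 28.5 on DMSO 2 and 47.9 on DMSO 3, and its other probe sets differed by 0.60 and 0.52. RFX5 read 517, 504 and 657, RFXAP 29.3, 38.2 and 39.1 and RFXANK 239 and 249.9 against 371. The chains whose windows held the Y and X box letters, HLA-DRB1 and HLA-DOA, had log2 differences of 7.07 and 2.09, and HLA-DPA1, whose window held neither, had 8.03.

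Class I presentation genes were higher in 9 of 16 cases and lower in 0, with a median of 2.48, and several of them were already bright in LNCaP cells. The immunoproteasome subunits PSMB9 and PSMB8, which interferon induces in place of the constitutive subunits, showed the largest contrast, at 19.1 on DMSO 1, 17.1 on DMSO 2 and 1226 on DMSO 3 and 25.0, 22.2 and 1113 respectively. HLA-B read 827, 881 and 8094 and HLA-E 166, 172 and 2116, and the peptide transporter TAP1 differed by 2.40. The light chain B2M was higher within 4-fold, at 1927, 1964 and 6951. The endoplasmic reticulum chaperones CALR and PDIA3 did not follow, at -0.11 and -0.79.

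Interferon-stimulated genes were higher in 17 of 25 cases and lower in 0, with a median of 2.94. MX1, a GTPase that blocks viral replication, read 30.6 on DMSO 1, 28.2 on DMSO 2 and 2432 on DMSO 3, the DNA sensor IFI16 17.5, 17.2 and 1037, and the membrane protein IFITM1 38.5, 34.3 and 2014. BST2, IFI44L and OAS2 differed by 5.57, 4.98 and 4.62. IRF7 and IRF9, the factors that drive these genes, read 89.0 and 85.7 against 595 and 99.5 and 83.9 against 719. IFITM3 was the exception, lower on DMSO 3 at 764 against 1314 and 1294.

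Listed genes of other blood and tissue cells mostly stayed dim, and few were called, beside 3.87% of all genes higher and 4.23% lower. This holds for the listed genes only: CD226 and GIMAP6, which are outside these lists, were higher. Of 20 T-cell genes, 1 was higher: LCK, a Src family kinase known best from T cells, read 22.7 on DMSO 1, 20.0 on DMSO 2 and 572 on DMSO 3, and its second probe set differed by 4.83. The chains of the T-cell receptor complex CD3D, CD3E and CD3G read 20.9, 19.3 and 16.1 on DMSO 3, beside 25.9 and 23.1, 22.5 and 19.9 and 15.8 and 15.7 on the controls. None of 15 natural killer genes and none of 17 red cell and platelet genes was higher or lower by 4-fold. Among 23 myeloid genes, MNDA, a nuclear protein of myeloid cells that some B cells also make, was higher at 19.9, 18.8 and 128, and CEBPA was lower at 237, 259.5 and 42.5. CD14, a monocyte receptor, read 17.2, 17.2 and 18.8. The medians of these 4 lists lay between 0.11 and 0.29, and between -0.35 and -0.17 after centring on GAPDH and ACTB.

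Of 18 stromal, muscle and endothelial genes, SPARC and ACTA2 were higher, by 3.73 and 2.90, and FN1 lower, at 1129 on DMSO 1, 1100.0 on DMSO 2 and 43.8 on DMSO 3. The collagen genes COL1A2 and COL3A1 read 20.5 and 26.0 on DMSO 3, at the LNCaP values of 20.1 and 23.4 and 22.0 and 26.3. None of 11 basal and neuroendocrine prostate genes passed 4-fold. Over all genes, 3.87% were higher and 4.23% lower. In RNA from a bulk sample, fewer cells of a type and less RNA per cell cannot be told apart.

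**Figure D3:**
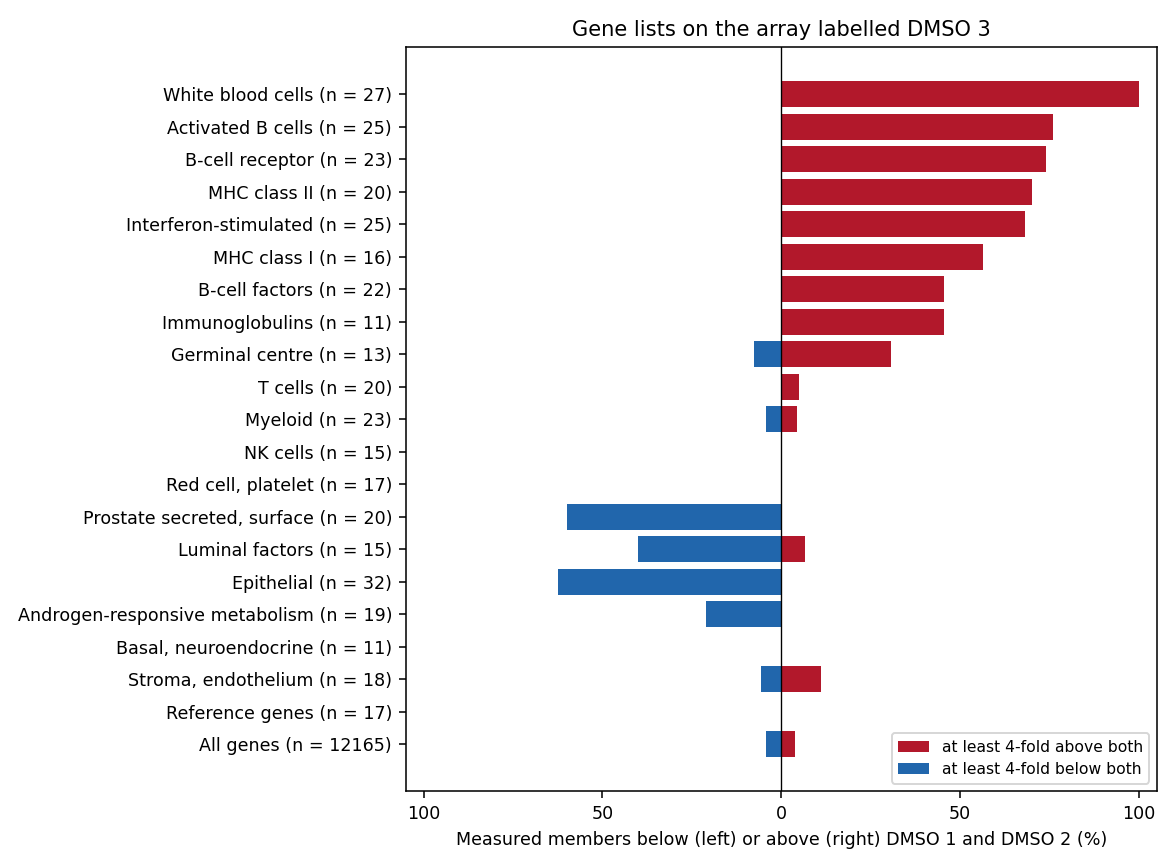
Bars give, for each gene list, the percentage of measured members at least 4-fold above both DMSO 1 and DMSO 2 (right, red) or at least 4-fold below both (left, blue) on the array labelled DMSO 3, with all genes in the last bar. White blood cell genes reach 100% higher, epithelial genes 62.5% lower, and the natural killer, red cell, basal and reference gene lists have no bar.

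The luminal prostate genes formed the counterpart. Of 20 secreted and surface proteins of luminal cells, 12 were lower, 0 higher and the median log2 difference was -3.00, beside the 4.23% of all genes counted as lower. After FOLH1 came SPON2, a secreted matrix protein, at 6668 on DMSO 1, 6689 on DMSO 2 and 36.9 on DMSO 3. STEAP1, a membrane protein of the prostate cell surface, followed at 3243, 3359.9 and 31.6. ACP3, the prostatic acid phosphatase, read 1211, 1335 and 31.6, and HPN, the serine protease hepsin, read 601, 622 and 17.3. RLN1 and RLN2, the relaxins, differed by -4.40 and -3.99, with probe sets that may share signal. KLK2, the kallikrein next to KLK3, read 73.9 and 84.8 on the controls and 20.1 on DMSO 3, a difference of -1.88. MSMB and STEAP4 were dim on all arrays, at 14.6, 14.8 and 15.6 and 16.2, 19.9 and 19.8.

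Among 15 luminal transcription factors, 6 were lower and 1 higher, with a median of -1.13. HOXB13, the homeobox factor of prostate identity, read 1116 on DMSO 1, 1223 on DMSO 2 and 29.0 on DMSO 3, and GATA2, a partner of the androgen receptor, read 388, 456 and 19.4. EHF, GRHL2, FOXA1 and SPDEF differed by -3.50, -3.37, -3.15 and -2.72. GATA3, which is a lymphoid as well as an epithelial factor, was the higher member at 18.3, 18.8 and 88.9. This call was lost when arrays were centred on GAPDH and ACTB, which left 0 higher in the list.

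Epithelial structure genes were lower in 20 of 32 cases and higher in 0, with a median of -3.12. SPINT2, an inhibitor of membrane serine proteases, read 1679.8 on DMSO 1, 1746 on DMSO 2 and 19.4 on DMSO 3, close behind KRT18. KRT8, the partner keratin of KRT18, read 795, 837 and 36.3. RAB25, CLDN7 and CDH1 (E-cadherin) differed by -4.99, -4.83 and -4.57. The receptors ERBB2 and ERBB3 read 569 and 597 and 607 and 585 on the controls against 18.2 and 18.7 on DMSO 3. EPCAM, the surface marker used to sort epithelial cells, read 409, 508 and 24.3, and the desmosome component DSP 672, 649 and 35.3. KRT19, KRT7 and MUC1, by contrast, were dim on every array, with KRT19 at 22.2, 22.0 and 22.4. The catenins CTNNA1 and CTNND1 were lower within 4-fold, at -1.48 and -1.85.

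Androgen-responsive genes of metabolism and trafficking were less uniform, with 4 of 19 lower, 0 higher and a median of -1.09. ADAMTS1, a secreted metalloprotease, read 1030.2 on DMSO 1, 1208 on DMSO 2 and 12.5 on DMSO 3, the largest difference of the list. TRPM4, ENDOD1 and NDRG1 differed by -4.75, -3.13 and -2.71. FKBP5, a cochaperone that steroid receptors induce in many cell types, did not follow and read 101, 97.0 and 123, and neither did ODC1, the first enzyme of polyamine synthesis, at 2767, 2778 and 2858.

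Several of the strongest differences fell outside the luminal lists. EEF1A2, the tissue-restricted elongation factor, read 4053 on DMSO 1, 4029 on DMSO 2 and 17.4 on DMSO 3, while its general counterpart EEF1A1 read 17551, 18011 and 15861. CALD1, an actin-binding regulator of contraction, read 4030.1, 3953 and 19.6, and SELENBP1, a selenium-binding oxidase, read 5552, 5631 and 31.7. BEX3, GULP1, GRB10 and CAMK2N1 differed by -7.23, -6.81, -6.75 and -6.75. On the cytoskeletal side, 7 of 19 genes were higher and 2 lower, with a median of 1.38. LGALS1, the lectin galectin-1, read 17.3, 22.6 and 2610.4, ANXA2 31.3, 31.7 and 1170.0 and VIM, the intermediate filament of mesenchymal and blood cells, 116, 127 and 917. CD44, the hyaluronan receptor, differed by 4.85, and 5 of its 8 probe sets exceeded 4-fold. CD99 and TMSB15A were the lower members, at -2.23 and -2.66.

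Against this contrast most genes differed little. Of 12165 genes, 9265 (76.2%) lay within 2-fold of both control arrays, and among the 6123 that were above the array median on DMSO 3 and on a control array, 4286 (70.0%) did. None of 17 reference genes passed 4-fold, with a median of 0.06. They ran from IPO8, at -1.10, to B2M, at 1.82. GAPDH, the glycolytic enzyme used as a loading reference, read 10124 on DMSO 1, 10411 on DMSO 2 and 10686 on DMSO 3, and PPIA, a cyclophilin, read 10960.1, 10951 and 9875. ACTB, the cytoplasmic actin, was higher at 9921, 10630.0 and 18556, and YWHAZ was lower at 3059.5, 3230.3 and 2235. The general transcription factor TBP read 89.6, 98.2 and 128, and HPRT1, a purine salvage enzyme, 554, 573 and 1156. On the scale centred on GAPDH and ACTB the list's median became -0.40, so its sign depends on the scaling.

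Few translation and energy genes passed 4-fold, and their medians lay slightly below 0. The 67 ribosomal protein genes had a median of -0.16 with 2 higher, beside 3.87% of all genes. These were RPL39L at 13.6 on DMSO 1, 13.0 on DMSO 2 and 87.5 on DMSO 3 and RPL37A at 23.8, 24.0 and 136. Both were dim on the controls, where most genes of the list were bright. The probe set of RPL37A is of a kind that can cross-hybridise, so its value is uncertain. The 18 translation factors had a median of -0.15, the 69 respiratory chain genes -0.29 and the 34 proteasome genes -0.23. Respiratory chain genes ran from NDUFB4, at 7780, 7408 and 2657, to NDUFB8, at 633, 633 and 1202. After centring on GAPDH and ACTB, 64 respiratory chain genes lay below both controls and 3 above both. In the proteasome only the interferon-induced subunits PSMB8, PSMB9 and PSMB10 passed 4-fold, while PSMB5, the constitutive counterpart of PSMB8, was lower within 4-fold at 1117, 1133 and 535. All 4 medians were further below 0 after centring on GAPDH and ACTB, between -0.61 and -0.75.

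None of 21 glycolysis genes passed 4-fold, and the median was 0.08, or -0.38 after that centring. SLC2A3, a high-affinity glucose transporter, read 21.3 on DMSO 1, 20.1 on DMSO 2 and 66.3 on DMSO 3, and HK2, the inducible hexokinase, read 21.7, 22.0 and 59.1. LDHA and PKM lay above both controls at 4685 and 3154, beside 3075 and 2899 and 2075 and 2007. Lipid synthesis had a median of 0.07, or -0.38 centred. ACSL5, an acyl-CoA synthetase, was higher at 19.6, 21.6 and 107, a call lost under that centring, and SREBF1, the factor that drives fatty acid synthesis, was lower at 581, 531 and 81.0. The fatty acid synthesis enzymes ACACA and FASN read 362 and 297 on DMSO 3 against 1371 and 1392 and 1341 and 1079, and the cholesterol pathway enzymes SQLE and FDPS 509.7 and 1048 against 183 and 175 and 399 and 339.

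The 3 enzymes of serine synthesis were lower on DMSO 3. PHGDH, the first of them, read 939 on DMSO 1, 894 on DMSO 2 and 36.4 on DMSO 3. PSPH, which completes the pathway, read 295, 306 and 18.0, and PSAT1, the enzyme between them, 999, 1111 and 123. All 3 enzymes were lower on DMSO 3 than on any of the other 5 arrays, with gedunin arrays at 1072 to 1205 for PHGDH. The whole list of 25 serine, 1-carbon and nucleotide genes, these 3 included, had a median of 0.34, or -0.12 centred on GAPDH and ACTB. ADA, the adenosine deaminase of lymphocytes, was its 1 higher member at 91.7, 90.0 and 487, a call lost under that centring. RRM2 and TYMS, enzymes of deoxynucleotide supply, lay above both controls at 1.64 and 1.14. Among 10 polyamine genes AMD1, the decarboxylase that supplies spermidine synthesis, was lower at 2126, 1949 and 247.

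Replication and mitosis genes lay above the controls as a group. Of 39 measured, 35 lay above both control arrays by some amount, with a median of 1.12, beside 0.01 over all genes. By 4-fold, 3 were higher and 0 lower, beside 3.87% and 4.23% of all genes. MCM5, a subunit of the replicative helicase, read 183 on DMSO 1, 182 on DMSO 2 and 1067 on DMSO 3, and MKI67, the antigen of dividing cells, read 184, 206 and 1135. AURKB, the kinase of the chromosomal passenger complex, read 67.9, 59.9 and 306. CDK1 and CCNE2 lay below both, at -0.46 and -0.30. After centring on GAPDH and ACTB the median was 0.67, with 28 genes above both and 2 higher by 4-fold.

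Among the G1 regulators the D cyclins differed in opposite directions. CCND2 read 16.4 on DMSO 1, 20.1 on DMSO 2 and 1405 on DMSO 3, with other probe sets at 4.95 and 2.31 in log2 difference. CCND1 went the other way, at 330.5, 303 and 63.8. With gedunin arrays at 140 to 193, it did not keep 4-fold against them. CCND3 stayed within 2-fold at 224, 234 and 342. MYB, a factor of dividing blood cell precursors, was the other higher gene of 17, at 49.6, 39.3 and 449. Over all genes, 3.87% were higher. CDKN1A, the p21 inhibitor, read 759.8, 902 and 1013, although gedunin arrays were at 3304 to 3379.

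Of 28 growth factor, cytokine and chemokine receptors, 7 were higher and 4 lower, beside 3.87% and 4.23% of all genes. Centred on GAPDH and ACTB, 6 were higher and 4 lower, with a median of -0.21. The common cytokine receptor chain IL2RG read 24.3 on DMSO 1, 26.5 on DMSO 2 and 1219.7 on DMSO 3, the chemokine receptor CCR7 18.1, 17.8 and 546 and GPR183, which guides B cells in follicles, 21.3, 18.1 and 417. IL21R, CXCR4 and TNFRSF1B differed by 3.92, 3.17 and 3.08. Besides ERBB2 and ERBB3, the lower receptors were IL6ST, the signalling chain of the interleukin 6 family, at 364, 387 and 52.3, and TNFRSF1A, at 175, 178 and 35.7. In the phosphoinositide 3-kinase list 1 of 13 genes passed, INPP5D, at 23.5, 21.3 and 411, while the regulatory subunit PIK3R3 was lower within 4-fold at 641, 696 and 177.

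Cell death genes were higher in 7 of 21 cases and lower in 0, beside 3.87% and 4.23% of all genes. Their median was 0.32, or -0.13 centred on GAPDH and ACTB. BCL2A1 read 16.7 on DMSO 1, 16.4 on DMSO 2 and 398 on DMSO 3. BAX, a pore former of the mitochondrial pathway, read 23.6, 24.4 and 451, and a second probe set differed by 3.53. BID differed by 3.45, FAS by 3.44 and PMAIP1 by 3.33. From the gedunin arrays FAS and PMAIP1 differed by less than 4-fold, at 772 beside 215 to 230 and 829 beside 465 to 505. BCL2 read 24.7, 24.4 and 204, although its other 3 probe sets differed by less than 4-fold, the largest by 1.09.

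The heat shock genes HSPA6, DNAJB1 and HSPA1B were lower on each of the 3 DMSO arrays than on any gedunin array. HSPA6, a strictly inducible heat shock gene, read 34.1 on DMSO 1, 28.1 on DMSO 2 and 30.0 on DMSO 3, beside gedunin arrays at 944 to 1156. DNAJB1, a cochaperone, read 558, 605 and 314, beside 6808 to 7381. The near-identical genes HSPA1A and HSPA1B went in opposite directions: HSPA1A read 18.2, 27.4 and 283 and HSPA1B 601, 566 and 47.1, with gedunin arrays at 279 to 366 and 3598 to 3849, so HSPA1A on DMSO 3 lay inside the gedunin range. Their probe sets can share signal, so these values are uncertain. BAG3 was the other lower member of 18, at 236, 224 and 34.6, and the list's median was -0.05.

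The LNCaP side of the contrast held on the gedunin arrays for most genes. Of the 471 higher genes, 434 were also at least 4-fold above every gedunin array, and of the 514 lower genes 431 were at least 4-fold below every one. HSPA1A was the 1 higher gene that did not lie above all gedunin arrays. Others did not pass 4-fold against the gedunin arrays. The amino acid transporter SLC7A5 read 30.6 on DMSO 1, 31.0 on DMSO 2 and 228 on DMSO 3, with gedunin arrays at 139 to 169. PRR15L read 144, 166 and 25.1, with gedunin arrays at 30.1 to 30.8. Among genes named above, FAS, PMAIP1, CCND1, SPDEF, GATA3, LMO2 and HLA-DOA also did not pass.

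Where a gene had further probe sets, these mostly lay on the same side. Of the 206 higher genes with other probe sets, 117 had another that passed 4-fold, 89 had none and 0 had one past 4-fold on the opposite side. Of the 228 lower genes, these numbers were 113, 115 and 1, the last being DTNB, a dystrobrevin with a second probe set at 502 on DMSO 3 against 16.9 and 18.1.

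**Figure D4:**
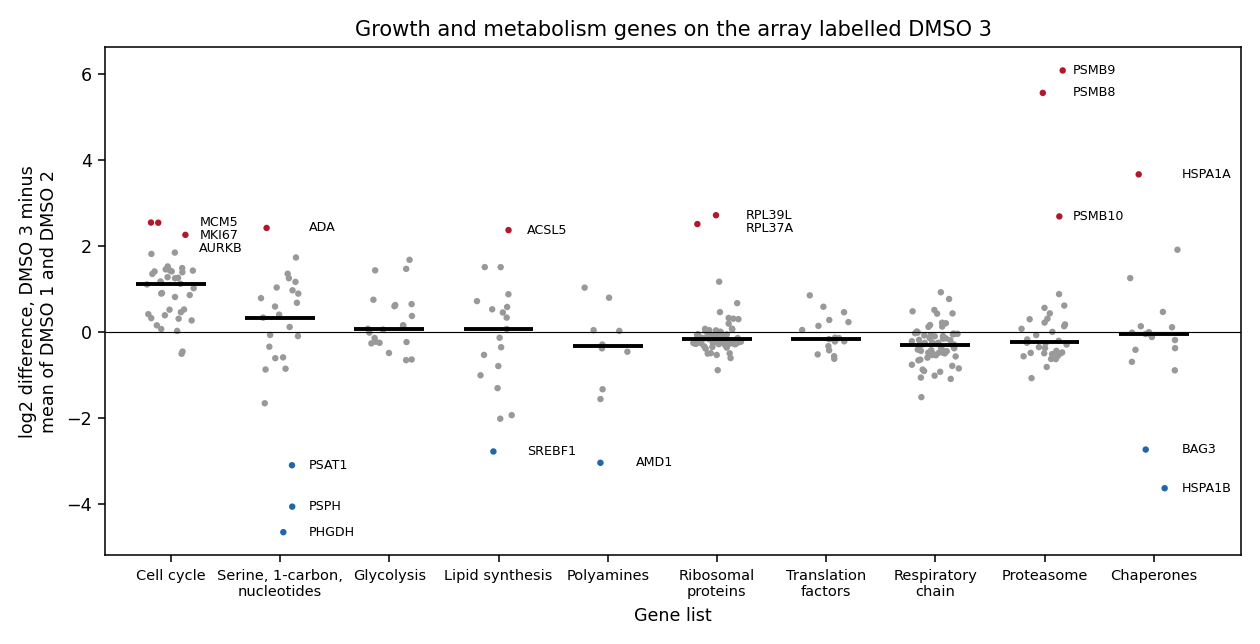
Each point is 1 gene of a growth or metabolism list, placed at its log2 difference on the array labelled DMSO 3 from the mean of DMSO 1 and DMSO 2, with a bar at the list median and horizontal scatter for legibility only. Red and blue points, with names, lie at least 4-fold above or below both controls, and the medians run from -0.33 for polyamine genes to 1.12 for cell cycle genes.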

How the data were processed

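The deposited table holds 1 intensity for each of 22215 probe sets on 6 arrays. Per the submitters' processing notes the authors made these intensities with RMA (background correction, quantile normalization, probe summary), and no version is given. Quantile normalization gives arrays nearly the same distribution, so a sample that differs in many genes is pulled toward those normalized with it. Which arrays were normalized together is not stated. The values were linear and log2 was taken of them here. The platform annotation of 2016 gave 19724 probe sets 1 gene symbol, 568 several and 1923 none, for 12165 genes. A gene was represented by its probe set with the highest mean log2 over the DMSO arrays. A gene counted as higher or lower when it lay at least 4-fold on the same side of both DMSO 1 and DMSO 2. The counting was checked on simulated data.

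The array, its markers, the gene lists and the motifs were chosen with earlier results of these data known. Named genes were the 12 highest and 12 lowest, the markers, common reference genes, and in each list up to 6 members past 4-fold and 3 nearest to 0. Genes named beyond that were chosen after their values were seen, such as PAX5, CIITA, SPI1, TCF3, CD3D, CD14, CD80, KLK2, KRT8, EPCAM, FKBP5, FASN, HSPA6, DNAJB1 and SLC7A5, as were the upstream sequences of HLA-DRB1, HLA-DOA, HLA-DQA1 and HLA-DPB1 and the lists of the closing section. RefSeq windows (GRCh38.p14) were found for 9693 of 12141 genes that could be named. HLA-DRA and MS4A1, also meant to be shown, are not analysed here by sequence. Alternatives were other fold steps, other baselines, scalings, floors and ways to choose probe sets. Python 3.11.15, pandas 2.3.3, numpy 2.4.6 and matplotlib 3.10.9 were used.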

Additional observations from a re-analysis of the deposited data

How the results depend on the processing

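No value was tested, so the settings are compared by counts. Centring also moved the median log2 difference of all genes from 0.01 to -0.44 and turned the sign of list medians near 0, such as that of the housekeeping genes from 0.06 to -0.40. Against 731 probe sets and 471 genes higher and 816 probe sets and 514 genes lower at 4-fold, a 2-fold step gave 1669, 1052, 2274 and 1458 in that order, an 8-fold step 412, 279, 346 and 232, and a 16-fold step 229, 152, 166 and 111. Dropping cross-hybridising and shared probe sets (_x_at, _s_at) gave 310 and 270 higher and 348 and 282 lower, with fewer probe sets counted. Centring each array on GAPDH and ACTB gave 1281 lower probe sets and 820 lower genes. The remaining settings kept each count within 1.5 times, at 571 to 781 and 371 to 508 higher and 588 to 886 and 391 to 557 lower. Without DMSO replicate 1 or DMSO replicate 2 the higher counts were 752 to 774 probe sets and 483 to 500 genes, and the lower counts 853 to 886 probe sets and 540 to 557 genes. Leaving out genes whose probe sets did not all lie on the same side, a setting chosen after seeing the data, gave 445 and 465 genes. No paired analysis was possible because 1 array was set against 2 of the same labelled group, with no test. With 1 such array the spread between samples of its kind is not known, and dim intensities, without detection calls, limit how small a contrast can be read.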

Other observations

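Further gene families were chosen after their values were seen and share some genes with the lists above. That members differed between DMSO 3 and the controls therefore follows from the choice. Over all genes, 3.87% were higher and 4.23% lower. The list held 27 MAGE, GAGE and related cancer-testis genes, which many tumours express and most adult tissues outside the testis do not. Of these, 5 were lower, 0 higher and 22 neither. MAGEA3 read 2324 on DMSO 1, 2472 on DMSO 2 and 24.0 on DMSO 3, MAGEA6 1713, 1926 and 43.4, MAGEA12 467, 521 and 23.2 and PRAME 299, 318 and 30.2, and the probe set annotated to GAGE7 was among the 12 lowest of all genes at -6.86. These families share sequence, so single members cannot be fully separated. Of 33 chemokine ligands, 7 were higher and 0 lower. CXCL10, which interferon induces, read 16.5, 16.5 and 985, CXCL8 17.5, 15.5 and 693 and XCL2 18.4, 19.5 and 517, and CXCL9, CCL4 and CCL5 differed by 3.63, 3.95 and 2.78.

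Cathepsins, the proteases of the lysosome, divided evenly. CTSC, CTSS and CTSZ were higher on DMSO 3, with CTSC at 29.2 on DMSO 1, 32.5 on DMSO 2 and 1622 on DMSO 3 and CTSS, which trims the invariant chain in B cells, at 3.25. CTSB, CTSL and CTSF were lower, with CTSB at 612, 672 and 83.0 and CTSL at -2.60. Among 34 aldehyde dehydrogenases and glutathione transferases, 8 (23.5%) were lower and 2 (5.88%) higher, the latter near the 3.87% of all genes. GSTP1, which LNCaP cells are known to silence, read 20.4, 23.1 and 568, while GSTM3 read 1137, 1285 and 21.7 and GSTA4 740.4, 755 and 44.7. Of 10 GIMAP and SLAM family genes of lymphocytes, 5 were higher, among them GIMAP6 at 16.4, 17.5 and 434. APOBEC3G, a cytidine deaminase that restricts retroviruses, read 29.3, 24.2 and 535.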
